A study of Mus musculus with 9 samples.

Results

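Bone morphogenetic proteins (BMPs) are secreted ligands of the TGF-β superfamily. They bind pairs of serine/threonine kinase receptors, which phosphorylate Smad1 and Smad5, and these enter the nucleus with a partner Smad and switch on target genes, the Id genes among them. Secreted antagonists such as Gremlin 1 (Grem1) and the BMP-binding regulator Bmper act on the ligands outside the cell. Id proteins bind the E proteins, a family of helix-loop-helix transcription factors, and keep them off DNA. In liver, BMP6 from non-parenchymal cells is known for setting hepcidin and so iron balance, and BMP signals can oppose those of TGF-β in fibrosis.

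The 10 genes of this pathway described here were measured by probes, which were found by the symbol in the array annotation. They were the ligands Bmp2, Bmp4, Bmp6 and Bmp7, the antagonists Grem1 and Bmper, and the targets Id1, Id2, Id3 and Id4. They had 13 of the 45281 gene probes of an Illumina MouseWG-6 v2.0 bead array. The samples were 9 preparations of activated hepatic stellate cells (aHSCs), the scar-forming cells of the liver, with 1 array each. The labels give all as from male C57/Bl6 mice of genotype WT1GFP/+ (the study's methods name both sexes for its cultures), in which a heterozygous knock-in places green fluorescent protein under the Wt1 locus, so that the sort follows reporter brightness.

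WT1-high cells (GFP high, replicates 1, 8 and 29) and WT1-intermediate cells (GFP low, replicates 1, 8 and 30) were sorted directly from livers made fibrotic by repeated carbon tetrachloride injection of adult mice. WT1-negative cells (GFP negative, replicates 3, 11 and 14) came from uninjured livers and were sorted after 7 days of activation on plastic. Injury in the animal, culture, deposited table and WT1 status therefore changed together in both comparisons with WT1-negative cells and cannot be told apart. Values are given in the replicate order above, as normalised log2 levels of 1 probe, and are not compared between probes. A probe is called detected on an array when its deposited detection p is under 0.05.

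Arrays had a mean signal of 147 to 289 and detected 38.1% to 43.7% of gene probes. Biotin staining controls averaged 4400 to 4880 on the in vivo and 2870 to 3130 on the cultured arrays. Of 11 stellate cell markers, Lrat, Rgs5 and Gfap were detected on too few arrays to be tested, and Ngfr was detected on 0 of 3 WT1-intermediate arrays. Summed signals of the stellate list were 4234 to 4936 in WT1-high, 2362 to 3733 in WT1-intermediate and 9394 to 10830 in WT1-negative cells. Sums add linear signals, so bright markers such as Acta2 (mean log2 11.23, 10.47 and 13.01 in these groups) weigh most. By gene, 2 of 8 stellate markers tested (Col1a2 and Hand2) were higher and 4 lower than in WT1-negative cells in both comparisons (medians -0.22 and -0.27). All 10 mesothelial markers tested were higher in both WT1-positive groups than in WT1-negative cells, where Gpm6a, Krt19, Lrrn4 and Muc16 were detected on 0 arrays. Mesothelial sums were 28250 to 32690, 17880 to 24080 and 394 to 486 in the 3 groups. Macrophage sums were 3575 to 6531, 11950 to 19910 and 35250 to 39550. By gene, 1 of 10 macrophage markers tested was higher and 7 were lower in WT1-high than in WT1-negative cells (median -2.11). In WT1-intermediate cells the list was mixed, with 2 higher and 3 lower (median -0.39). Endothelial markers were higher for 3 and 4 of 12 and lower for 6 in both comparisons with WT1-negative cells (medians -0.52 and -0.04). Of 5 T and NK cell markers tested, all 5 were higher in both WT1-positive groups (medians 2.71 and 2.88; sums 581.6 to 961.2, 566.3 to 1051 and 100.2 to 103.3), and 4 were detected on 0 WT1-negative arrays. Hepatocyte markers were higher for 5 and 4 of 6 and lower for 1 (sums 313.8 to 1441, 414.1 to 1120 and 142.1 to 158.8). Portal fibroblast markers were higher for 3 of 5 and lower for 1 in both comparisons (medians 4.51 and 4.15). Their part in the members' differences from WT1-negative cells was not tested. In such sorted bulk samples, fewer cells of a type and less RNA per cell cannot be told apart.

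**Figure D1:**
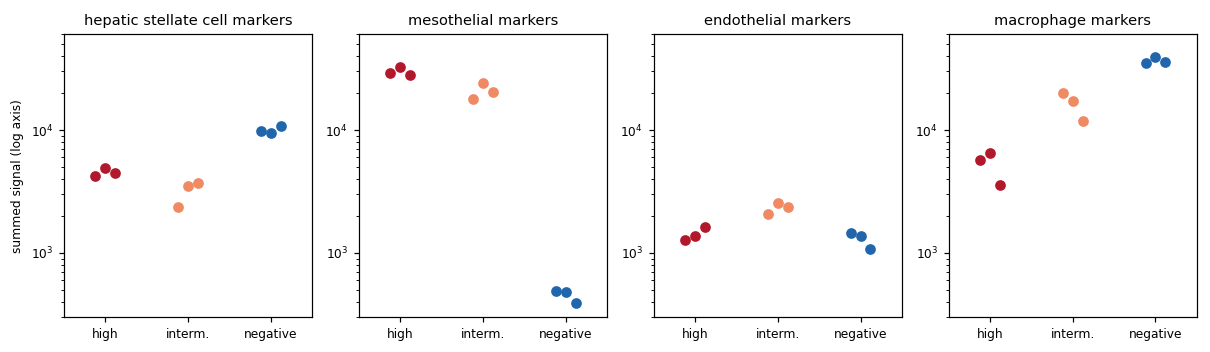
Summed signal (log axis, 1 point per array) of the hepatic stellate cell, mesothelial, endothelial and macrophage marker lists in WT1-high, WT1-intermediate and WT1-negative cells. Mesothelial sums were lowest in WT1-negative cells (394 to 486) and macrophage sums were highest there (35250 to 39550), while endothelial sums were highest in WT1-intermediate cells (2082 to 2552). Sums add linear signals, so the brightest markers of a list weigh most.

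The probes for Bmp4, Id2 and Grem1 are shown first, because 2 of these genes were measured by a pair of probes and Grem1 was the gene that ran against the others. Each probe has 50 bases, of which the first 30 are printed as the annotation lists them.
Bmp4 ILMN_1215252: ggcctgttgtgtccccactgaactgagtgc
Bmp4 ILMN_1235698: ttctcgtctaaaccgtcttggagcctgcag
Id2 ILMN_1228557: taaaaagaaagcggaaggaaaactaaggat
Id2 ILMN_2887239: tgagtgaaccttgtggactctttaattaga
Grem1 ILMN_1228522: gacatctcagtcgtagcccatgttcctaaa

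Of the 10 genes, 7 had an entry in the RefSeq promoter table of build GRCm38.p6, which holds no entry for Bmp2, Bmp7 and Id1. The 250 bases before the gene start are printed for the 3 Id genes that differed from WT1-negative cells and for Grem1, which differed the other way. Capitals mark GGCGCC, a GC-rich element that BMP-activated Smads are known to bind. The motif reads the same on both strands.
Id2, chr12:25096093-25096342, minus strand: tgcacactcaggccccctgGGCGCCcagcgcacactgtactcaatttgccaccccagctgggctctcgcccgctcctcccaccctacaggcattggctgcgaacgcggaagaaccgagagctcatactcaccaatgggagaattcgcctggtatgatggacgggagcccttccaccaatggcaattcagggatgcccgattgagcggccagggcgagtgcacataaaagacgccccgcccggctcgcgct
Id3, chr4:136143572-136143821, plus strand: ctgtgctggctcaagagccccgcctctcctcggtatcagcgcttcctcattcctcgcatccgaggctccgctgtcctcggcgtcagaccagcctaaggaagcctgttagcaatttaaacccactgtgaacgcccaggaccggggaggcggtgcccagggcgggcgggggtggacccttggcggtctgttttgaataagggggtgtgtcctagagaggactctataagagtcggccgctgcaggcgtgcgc
Id4, chr13:48260866-48261115, plus strand: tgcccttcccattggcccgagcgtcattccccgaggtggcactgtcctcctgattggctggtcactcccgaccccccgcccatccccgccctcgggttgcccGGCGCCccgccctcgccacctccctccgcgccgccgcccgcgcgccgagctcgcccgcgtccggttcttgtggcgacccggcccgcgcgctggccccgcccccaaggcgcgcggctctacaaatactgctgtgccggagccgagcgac
Grem1, chr2:113758649-113758898, minus strand: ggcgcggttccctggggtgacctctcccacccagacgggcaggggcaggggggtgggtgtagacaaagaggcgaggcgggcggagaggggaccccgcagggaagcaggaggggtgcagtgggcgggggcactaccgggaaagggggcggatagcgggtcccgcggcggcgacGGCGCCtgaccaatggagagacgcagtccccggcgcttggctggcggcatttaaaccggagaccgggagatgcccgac

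GGCGCC occurred 1 time in each of the windows of Id2, Id4 and Grem1 and in none of the windows of Id3, Bmp4, Bmp6 and Bmper. It began 231 bases before the start of Id2, 148 before Id4 and 78 before Grem1. Among all 32851 promoter entries, 9.59% held it. The letters were thus found both in genes that were higher and in the gene that was lower in WT1-positive cells, and a match is not evidence of binding.

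Both WT1-positive groups differed from WT1-negative cells in 10 of 11 tested member probes. Bmp4, Bmp6, Bmp7, Bmper, Id2, Id3 and Id4 were higher in each WT1-positive group, Grem1 was lower in both, and Id1 passed the test in neither. By limma at a Benjamini-Hochberg adjusted p under 0.05, 59.6% of all 20573 tested probes differed in the WT1-high comparison (26.5% higher, 33.1% lower) and 58.0% in the WT1-intermediate one (24.4% higher, 33.6% lower). Members had 9 probes higher and 1 lower in each comparison. By genes, 7 of 9 were higher and 1 was lower, where 27.6% of all genes were higher and 32.1% lower in the first comparison and 25.9% and 32.0% in the second. The median log2 difference of the member probes was 1.12 and 1.34, against -0.10 and -0.13 over all tested probes. Of the 11 probes, 4 were detected on no array of 1 or more groups and passed the detection filter through the groups in which they were high, so these counts and medians are descriptions of the probes that passed.

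**Figure D2:**
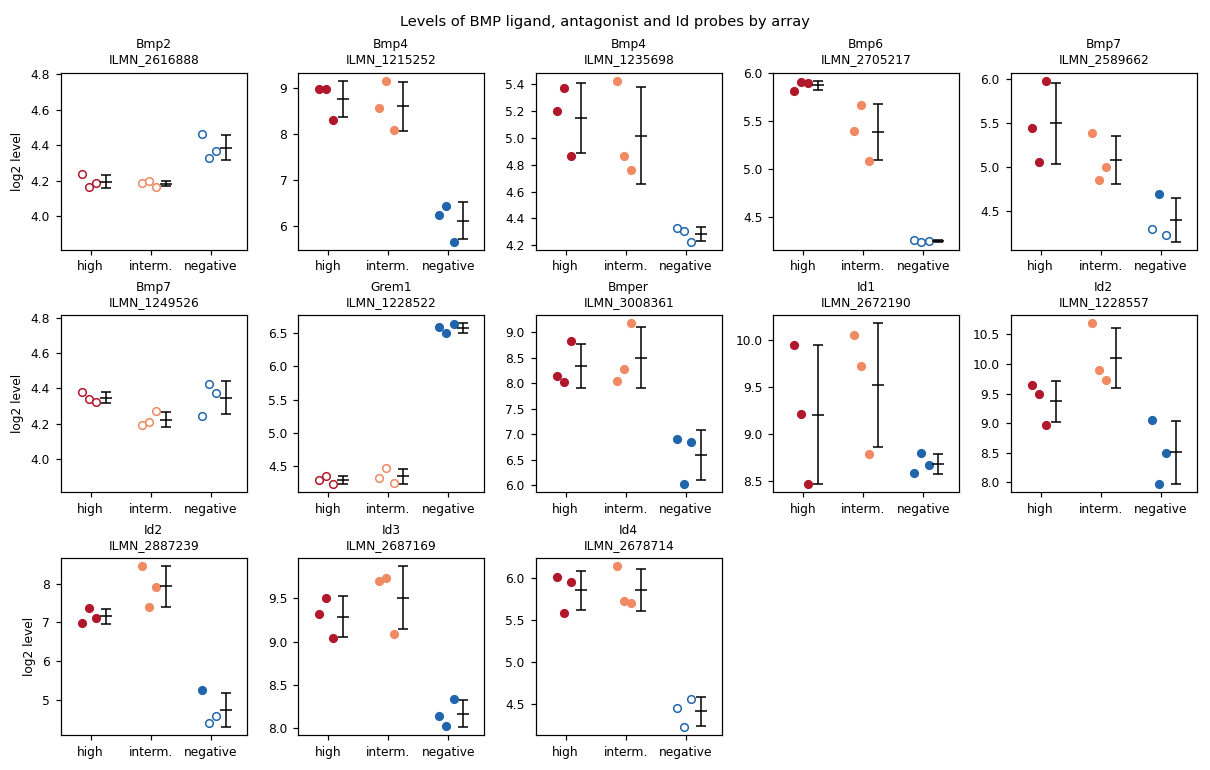
Normalised log2 levels of all 13 member probes, 1 panel per probe with its own axis, 1 point per array, open where the array did not detect the probe, with mean and SD (n = 3) beside them. Bmp4, Bmp6, Bmper, Id3 and Id4 lay higher on all 6 liver-derived arrays than on the WT1-negative arrays, Grem1 lay lower, and Bmp2 was detected on 0 of 9 arrays.

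Among the ligands, Bmp4, which patterns many embryonic tissues including the developing liver, differed from WT1-negative cells on both of its probes. Its brighter probe (ILMN_1215252, chromosome 14) gave log2 levels of 8.97, 8.98 and 8.31 on the WT1-high arrays, 8.55, 9.16 and 8.09 on the WT1-intermediate and 6.24, 6.43 and 5.66 on the WT1-negative arrays. Every liver-derived array lay above every cultured array, and the WT1-positive groups overlapped. In WT1-high cells Bmp4 was 6.24-fold higher (log2 difference 2.64, 95% interval 1.99 to 3.29; limma Benjamini-Hochberg adjusted p 1.8e-05). The WT1-intermediate level was 5.61-fold higher (log2 difference 2.49, SE 0.30; adjusted p 3.4e-05, limma, Benjamini-Hochberg).

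The second Bmp4 probe (ILMN_1235698) was dimmer, with log2 levels of 5.20, 5.38 and 4.87 on the WT1-high arrays, 5.43, 4.86 and 4.76 on the WT1-intermediate and 4.32, 4.31 and 4.23 on the WT1-negative arrays. It was detected on all 6 liver-derived and on 0 cultured arrays. Against the background limit of the cultured arrays, that is, the lowest signal of a detected probe on each, the rise was at least 1.46-fold to WT1-high and at least 1.33-fold to WT1-intermediate levels (limma Benjamini-Hochberg adjusted p 0.0031 and 0.0083). Both probes of the gene thus pointed the same way.

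Bmp6, the ligand tied to iron balance, was likewise detected in the liver-derived and not in the cultured samples. Its probe (ILMN_2705217, chromosome 13) gave 5.82, 5.91 and 5.89 on the WT1-high arrays, 5.40, 5.67 and 5.09 on the WT1-intermediate and 4.25, 4.24 and 4.25 on the WT1-negative arrays on the log2 scale. No cultured array detected it, and every liver-derived array lay above every cultured array. Over WT1-negative cells the rise was at least 2.41-fold to WT1-high and at least 1.72-fold to WT1-intermediate levels. Fitted log2 differences were 1.62 and 1.13 (limma Benjamini-Hochberg adjusted p 6.9e-06 and 0.00012).

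Bmp7, a ligand best known in kidney and for countering TGF-β in fibrosis models, was dim. Levels of its probe (ILMN_2589662, chromosome 2) were 5.45, 5.06 and 5.98 on the WT1-high arrays, 5.39, 4.86 and 5.00 on the WT1-intermediate and 4.29, 4.69 and 4.23 on the WT1-negative arrays (log2). The cultured arrays were lower throughout and detected it on 1 of 3. Bmp7 rose over the cultured arrays by 1.09 (SE 0.24) in the WT1-high and by 0.68 (SE 0.24) in the WT1-intermediate group on the log2 scale, from a level near background (limma Benjamini-Hochberg adjusted p 0.0023 and 0.030).

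The difference for WT1-intermediate cells was not a stable call. It missed the threshold without WT1-intermediate replicate 1 (0.54, adjusted p 0.10), WT1-negative replicate 3 (0.63, 0.082) or 14 (0.59, 0.098; limma, Benjamini-Hochberg). A second Bmp7 probe (ILMN_1249526) and the only Bmp2 probe (ILMN_2616888) were detected on 0 of 9 arrays and were not tested. For Bmp2, a close relative of Bmp4, nothing can therefore be said at this signal over background.

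The antagonists went in opposite directions. Grem1, which binds BMP ligands and keeps them from their receptors, was measured at 4.30, 4.35 and 4.24 on the WT1-high arrays, 4.32, 4.48 and 4.25 on the WT1-intermediate and 6.59, 6.50 and 6.64 on the WT1-negative arrays (log2, ILMN_1228522). All 3 cultured arrays detected it and none of the 6 liver-derived arrays did. Compared with WT1-negative cells, Grem1 was at least 4.07-fold (WT1-high) and at least 4.04-fold (WT1-intermediate) lower. Fitted log2 differences were -2.28 and -2.22 (limma Benjamini-Hochberg adjusted p 1.4e-07 and 2.2e-07). The probe entered the test through the 3 WT1-negative arrays alone, so it could not be tested without any 1 of them.

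Bmper, a secreted protein that binds BMPs and can block or help their signalling, was higher in the liver-derived cells. Its probe (ILMN_3008361, chromosome 9) gave 8.15, 8.02 and 8.83 on the WT1-high arrays, 8.04, 8.28 and 9.17 on the WT1-intermediate and 6.91, 6.02 and 6.84 on the WT1-negative arrays (log2). Both liver-derived groups lay wholly above the cultured arrays, and the highest value of each came from replicates 29 and 30. The rise of Bmper over WT1-negative cells was 3.34-fold for WT1-high cells (log2 difference 1.74, SE 0.33; limma Benjamini-Hochberg adjusted p 0.00088). For WT1-intermediate cells it was 3.74-fold (1.90, SE 0.33; limma Benjamini-Hochberg adjusted p 0.00051).

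The Id genes, direct targets of BMP-activated Smads in many cells, did not all behave alike. Id3, a partner of E proteins like the other members of its family, was 9.32, 9.51 and 9.04 on the WT1-high arrays, 9.70, 9.74 and 9.09 on the WT1-intermediate and 8.14, 8.03 and 8.34 on the WT1-negative arrays (log2, ILMN_2687169, chromosome 4). The liver-derived arrays all lay above the cultured ones. Over WT1-negative cells Id3 was 2.18-fold (WT1-high) and 2.54-fold (WT1-intermediate) higher (log2 differences 1.12 and 1.34, SE 0.20; limma Benjamini-Hochberg adjusted p 0.00061 and 0.00019). Under median scaling the latter was 0.61 and lost its call (adjusted p 0.19).

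Id4 gave 6.02, 5.58 and 5.96 on the WT1-high arrays, 6.14, 5.73 and 5.70 on the WT1-intermediate and 4.45, 4.22 and 4.56 on the WT1-negative arrays (log2, ILMN_2678714, chromosome 13). It was detected on every liver-derived array and on no cultured one. The rise was at least 2.37-fold to WT1-high and at least 2.38-fold to WT1-intermediate levels. Fitted log2 differences were 1.44 and 1.45 (limma Benjamini-Hochberg adjusted p 4.4e-05 and 5e-05).

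Id2, which is also known from lymphoid and myeloid cells, was measured by a pair of probes on chromosome 12. The brighter (ILMN_1228557) gave 9.64, 9.50 and 8.97 on the WT1-high arrays, 10.69, 9.90 and 9.73 on the WT1-intermediate and 9.05, 7.97 and 8.49 on the WT1-negative arrays (log2). The WT1-intermediate mean was the highest, and the lowest WT1-high array lay below the highest WT1-negative array. Against WT1-negative cells the fold was 3.05 for WT1-intermediate cells (log2 difference 1.61, SE 0.31; limma Benjamini-Hochberg adjusted p 0.0010). It was 1.82 for WT1-high cells (0.86, SE 0.31; limma Benjamini-Hochberg adjusted p 0.032). The WT1-high call was lost without WT1-high replicate 1 (0.73, adjusted p 0.10) or 8 (0.81, 0.086) and without WT1-negative replicate 11 (0.60, 0.13) or 14 (0.86, 0.070; limma, Benjamini-Hochberg).

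The dimmer Id2 probe (ILMN_2887239) gave 6.98, 7.37 and 7.12 on the WT1-high arrays, 8.45, 7.40 and 7.92 on the WT1-intermediate and 5.24, 4.39 and 4.59 on the WT1-negative arrays (log2). Here all liver-derived arrays lay above the cultured arrays, of which 1 of 3 detected the probe. Log2 differences from WT1-negative cells were 2.42 (WT1-high) and 3.19 (WT1-intermediate; SE 0.28; limma Benjamini-Hochberg adjusted p 2.1e-05 and 3.2e-06). The probes of Id2 thus had the same direction and different sizes.

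Id1, a widely used readout of BMP signalling, was 9.95, 9.21 and 8.46 on the WT1-high arrays, 10.06, 9.72 and 8.79 on the WT1-intermediate and 8.58, 8.79 and 8.66 on the WT1-negative arrays (log2, ILMN_2672190, chromosome 2). The cultured arrays were close together while the liver-derived arrays spread widely, and replicates 29 and 30 lay at the cultured level. Log2 differences from WT1-negative cells were 0.53 (95% interval -0.28 to 1.33) with WT1-high and 0.84 (0.04 to 1.65) with WT1-intermediate arrays, and neither passed (limma Benjamini-Hochberg adjusted p 0.23 and 0.068). Without WT1-high replicate 29, Id1 was called higher in WT1-high cells (0.89, adjusted p 0.042). The WT1-intermediate difference passed without WT1-intermediate replicate 30 (1.21, adjusted p 0.013), and also without WT1-high replicate 1 (0.84, 0.037) or 29 (0.84, 0.033), which enter through the shared spread (limma, Benjamini-Hochberg). Fitted with the compared groups alone it passed too (adjusted p 0.034), and under median scaling it shrank to 0.09 (adjusted p 0.89; limma, Benjamini-Hochberg).

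**Figure D3:**
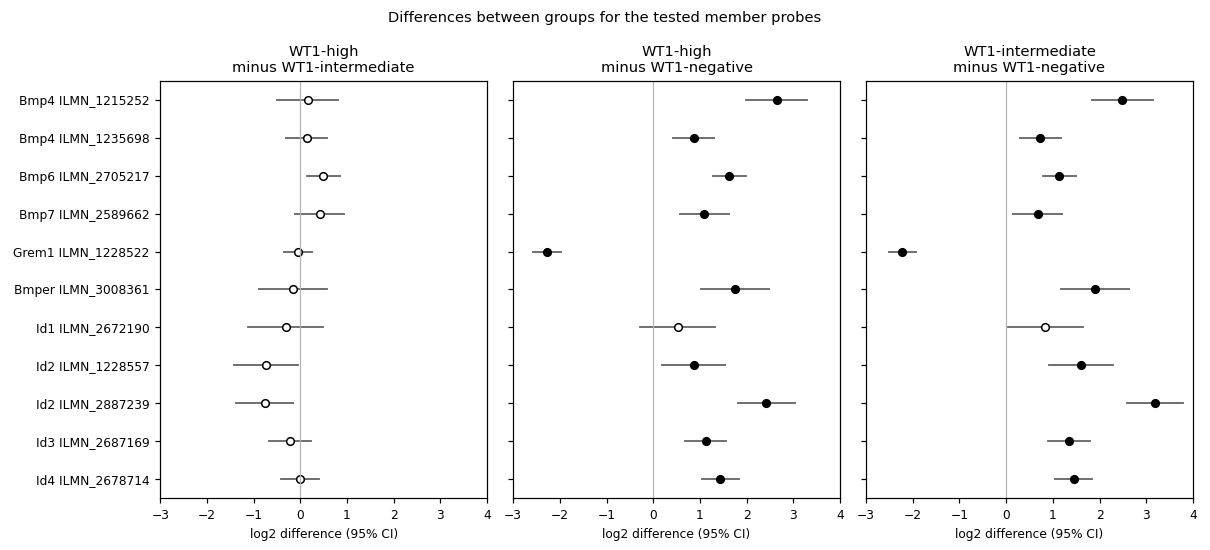
Log2 differences of the 11 tested member probes with 95% intervals in the 3 comparisons, filled where the limma Benjamini-Hochberg adjusted p was under 0.05. Grem1 lay below 0 against WT1-negative cells and the other probes above 0 there, values against groups that did not detect a probe (Grem1, Bmp6, Id4 and the dimmer Bmp4 probe) being fitted values near background, while no probe was filled between WT1-high and WT1-intermediate cells.

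Between the WT1-positive populations, both from injured liver, the question was whether they differ at all. None of the 11 member probes passed limma's test at a Benjamini-Hochberg adjusted p under 0.05 (0 called), where 3.55% of all tested probes did. At an unadjusted p under 0.05 there were 3, the Bmp6 probe and both Id2 probes, where 3545 of all 20573 tested probes had such a p. Over the 10 member probes that any of these arrays detected, the median log2 difference was -0.08, against 0.05 over all 20155 such probes. Among the ligands, Bmp6 was 0.49 higher in WT1-high cells and was not called (95% interval 0.14 to 0.84; adjusted p 0.14). Bmp7 gave 0.41 (-0.11 to 0.94; adjusted p 0.41), and Bmp4 0.15 (-0.50 to 0.80; adjusted p 0.84).

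For Bmper the log2 difference was -0.16 (95% interval -0.89 to 0.56), and its intervals, like those of Bmp4 and Id1, allow differences of considerable size either way. Id4 gave -0.01 (-0.40 to 0.39), Id3 -0.22 (-0.66 to 0.22) and Id1 -0.31 (-1.12 to 0.49). Grem1 was detected on none of these arrays and has no measured difference here.

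Id2 was not called between these groups in the main fit, and its difference depended on the scaling and its call on the replicate block. The log2 difference was -0.74 on the brighter probe (95% interval -1.42 to -0.06; limma Benjamini-Hochberg adjusted p 0.25) and -0.77 on the dimmer (-1.38 to -0.16; adjusted p 0.18). The 6 liver-derived arrays came from 3 animals. With the animal as a fixed replicate block, the brighter probe was called lower in WT1-high cells (-0.74, adjusted p 0.029) and the dimmer was not (-0.77, adjusted p 0.093; limma, Benjamini-Hochberg). With the block by the numbers of the labels, under which 29 and 30 are unpaired, both were called (-0.73 and -0.75, adjusted p 0.032 and 0.048). A random block called neither (adjusted p 0.10 and 0.093). With single arrays left out the differences ran from -0.92 to -0.45 and from -1.04 to -0.51. Under median scaling they shrank to -0.06 and -0.08 (limma Benjamini-Hochberg adjusted p 0.93 and 0.87). Bmp4 (0.84, adjusted p 0.20) and Bmp6 (0.81, 0.057; limma, Benjamini-Hochberg) were larger there and not called either. The median over all tested probes was 0.45 under that scaling.

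Within animals, the Id2 difference was -1.05, -0.40 and -0.77 on the brighter and -1.47, -0.03 and -0.80 on the dimmer probe for replicates 1, 8 and 29 with 30. Id3 gave -0.39, -0.23 and -0.05 and Id1 gave -0.11, -0.51 and -0.32. Bmp6 ran the other way in each animal (0.42, 0.24 and 0.81), as did Bmp7 (0.06, 0.20 and 0.99). Of all tested probes, 18.3% were lower and 25.5% higher in WT1-high cells in all 3 animals.

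**Figure D4:**
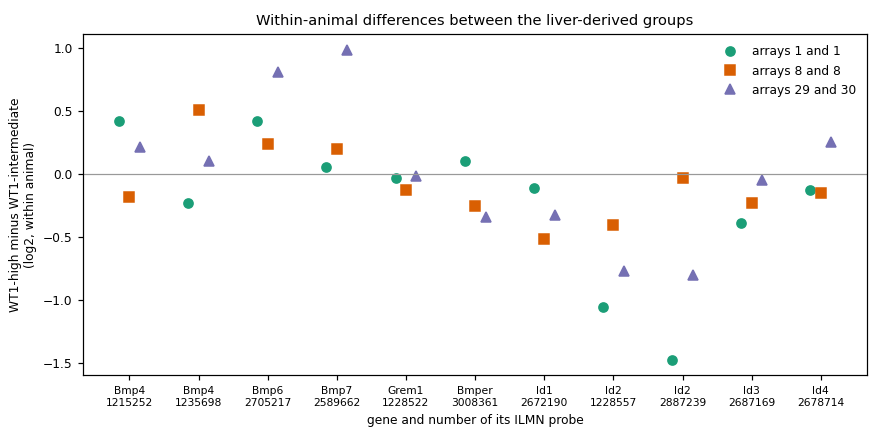
Within-animal log2 differences, WT1-high minus WT1-intermediate, of the 11 tested member probes, with 1 symbol per animal. Id1, both Id2 probes and Id3 lay below 0 and Bmp6 and Bmp7 above 0 in all 3 animals, and Bmp4, Bmper and Id4 had both signs.

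Markers of other cells moved with this comparison. Of 10 macrophage markers tested, 6 were lower and 0 higher in the WT1-high group (median -1.89), and of 12 endothelial markers 3 were lower (median -0.72, sums 1277 to 1617 against 2082 to 2552). Their part in the Id2 difference was not tested. The animals differed too. In both liver-derived groups, replicates 29 and 30 had the lowest Bmp4, Id1, Id2 and Id3 levels on their brighter or only probes and the highest Bmper level. This pattern was read after the values were seen.

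The rest of the pathway was described from 51 further genes in 6 lists, of which 27 had a tested probe and 4 were not analysed here. Counts by brightest probe are at the same threshold as above. Of 10 other ligands, Gdf2 (BMP9, which signals through the endothelial receptor Acvrl1) and Bmp5 could be tested. Gdf2 levels were 7.22 ± 0.31 (WT1-high) and 6.92 ± 0.32 (WT1-intermediate; log2, SD, n = 3), and the probe was detected on 0 cultured arrays. Its rise over the cultured arrays was at least 6.13-fold and at least 4.99-fold. Fitted log2 differences were 3.00 and 2.70 (limma Benjamini-Hochberg adjusted p 3.2e-07 and 9.4e-07).

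Of 9 receptors and co-receptors tested, 6 were higher and 1 was lower in WT1-high than in WT1-negative cells (median 0.49), and 5 were higher and 0 lower in WT1-intermediate cells (median 0.59). Of all genes, 27.6% were higher and 32.1% lower in the first comparison and 25.9% and 32.0% in the second. Bmpr1b, Bmpr2 and Rgma were detected on 0 WT1-negative arrays and passed the detection filter through the groups in which they were high. The receptor counts and medians are therefore descriptions of the genes that passed. The type I receptor Bmpr1a rose most, from a WT1-negative level of 5.61 ± 0.35 to 9.24 ± 0.22 (WT1-high) and 8.96 ± 0.18 (WT1-intermediate; log2, SD, n = 3). Its differences were 3.63 and 3.35 (limma Benjamini-Hochberg adjusted p 8.2e-08 and 1.9e-07), and its second probe had the same sign. The co-receptor Rgma, named after its values were seen, was at least 6.93-fold and at least 5.41-fold higher.

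Endoglin (Eng), a co-receptor abundant on endothelium, was the only gene of the 6 lists called between the WT1-positive groups. Its level was 6.21 ± 0.05 on the WT1-high arrays, 7.19 ± 0.18 on the WT1-intermediate and 6.77 ± 0.17 on the WT1-negative arrays (log2, SD, n = 3). The WT1-high level differed from the WT1-intermediate level by -0.98 ± 0.15 (SE) and from the WT1-negative level by -0.56 ± 0.15 (adjusted p 0.0060 and 0.0077, limma, Benjamini-Hochberg). Under median scaling these calls were lost (-0.35 and -0.55, adjusted p 0.39 and 0.14). Eng also stands in the endothelial marker list, whose sums moved the same way between the WT1-positive groups, and the part of endothelial RNA was not tested.

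Of 8 further modulators tested, 6 were higher in both WT1-positive groups than in WT1-negative cells (medians 1.51 and 1.35). Over all genes, 27.6% were higher and 32.1% lower in the WT1-high comparison, and 25.9% and 32.0% in the WT1-intermediate one. Nbl1, a DAN-family antagonist related to Gremlin, had levels of 11.49 ± 0.08 (WT1-high) and 11.37 ± 0.20 (WT1-intermediate) against 7.29 ± 0.30 (WT1-negative), rises of 4.20 and 4.08 (log2, SD, n = 3; limma Benjamini-Hochberg adjusted p 1.2e-08 and 2.2e-08). Chordin (Chrd), a BMP antagonist, and Twsg1, its cofactor, were higher by 2.96 and 2.88 in the WT1-high and by 2.51 and 2.35 in the WT1-intermediate group, both named after their values were seen. Follistatin (Fst), which binds activins and some BMPs, was lower than in WT1-negative cells with WT1-high arrays (-0.71, limma Benjamini-Hochberg adjusted p 0.020). With WT1-intermediate arrays it missed the threshold (-0.40, adjusted p 0.15). Its WT1-high call was lost without WT1-high replicate 8 (-0.53, adjusted p 0.083) or 29 (-0.65, 0.057) or WT1-negative replicate 11 (-0.51, 0.087).

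Within the cell, changes were smaller. Smad1 was higher than in WT1-negative cells by 0.52 (WT1-high) and 0.62 (WT1-intermediate; limma Benjamini-Hochberg adjusted p 0.025 and 0.011), and Smad5 by 0.61 in WT1-high cells (0.013). The WT1-high call of Smad1 was lost without WT1-high replicate 8 or 29 or WT1-negative replicate 11 or 14 (adjusted p 0.081, 0.067, 0.099 and 0.072), and that of Smad5 without WT1-negative replicate 3 (0.059). The inhibitory Smad6, itself a BMP target, was higher by 0.84 (adjusted p 0.0034) and 0.63 (0.017; limma, Benjamini-Hochberg). Among the 4 brakes and targets tested, 2 were higher in WT1-high cells, and 3 were higher and 1 lower in WT1-intermediate cells. The shares over all genes were 27.6% higher and 32.1% lower, and 25.9% and 32.0%. Atoh8, higher in both, was detected on 0 WT1-negative arrays and passed the detection filter through the liver-derived groups. The gene lower in WT1-intermediate cells was the ubiquitin ligase Smurf1 (-0.45). It lost its call without WT1-intermediate replicate 8 or 30 or WT1-negative replicate 3 or 11 (adjusted p 0.067, 0.078, 0.064 and 0.090; limma, Benjamini-Hochberg). Msx1, a homeobox target of BMP signals, had the largest rise of its list in WT1-intermediate cells (0.73, adjusted p 0.0037), which lost its call under median scaling (0.42, adjusted p 0.19; limma, Benjamini-Hochberg).

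Of the E proteins, which Id proteins bind, Tcf4 and Tcf12 were tested. Against WT1-negative cells, Tcf4 was lower in the WT1-high group (-0.76, SE 0.20; limma Benjamini-Hochberg adjusted p 0.0061), and Tcf12 in WT1-intermediate cells (-0.47, SE 0.13; adjusted p 0.011). The call of Tcf12 was lost without WT1-negative replicate 14 (-0.42, adjusted p 0.058) and under cyclic loess (-0.24, adjusted p 0.14), and that of Tcf4 under median scaling (-0.80, adjusted p 0.076; limma, Benjamini-Hochberg). Tcf4 was not called in WT1-intermediate cells (-0.28) nor Tcf12 in WT1-high cells (-0.14). The second tested probe of Tcf12 had the opposite sign in both comparisons.

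**Figure D5:**
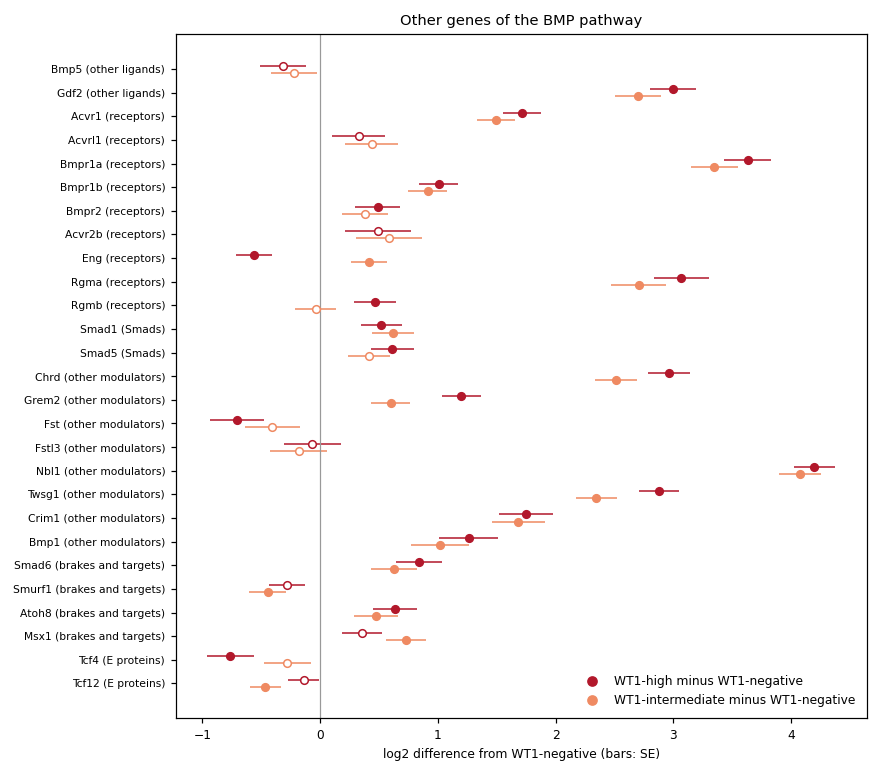
Log2 difference from WT1-negative cells (bars: SE) of the brightest tested probe of 27 further BMP pathway genes in WT1-high and WT1-intermediate cells, filled where the limma Benjamini-Hochberg adjusted p was under 0.05. Nbl1 (4.20 and 4.08) and Bmpr1a (3.63 and 3.35) lay farthest to the right, and Eng was the gene called on opposite sides of 0 (-0.56 and 0.42). Values of genes not detected in WT1-negative cells are fitted values near background.

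Genes with the profile most like each member were found by the root mean square (RMS) log2 distance between profiles centred over the 9 arrays, among the brightest probes of all genes. Nearest to Bmp4 was D630040I23Rik (RMS 0.178), followed by Sh3tc2 and Per1. Nearest to Grem1 was 2310039E09Rik (0.0761), nearest to Bmp6 Ccdc64 (0.0773) and nearest to Bmp7 Elf3 (0.160). Bmper lay closest to Ndufb10 (0.206), Id1 to B430305P08Rik (0.194), Id2 to Trim30 (0.181), Id3 to Atg2a (0.132) and Id4 to Jakmip1 (0.140). No member was among the 3 nearest genes of another, and 9 arrays in 3 groups leave many genes with a like profile.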

How the data were processed

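RNA of flow-sorted cells was amplified, biotinylated and hybridised to Illumina MouseWG-6 v2.0 arrays. The deposited values were summary probe profiles that the authors exported from BeadStudio. Each deposited value was the linear intensity of 1 probe as the authors exported it, without background correction or normalisation. With each came a deposited detection p-value, the share of negative control probes that were brighter. An in vivo column numbered 29 was used as WT1-intermediate replicate 30, since its values equalled those of that sample in the joined deposited table.

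All 9 arrays went through limma 3.58.1 (R 4.3.3) together, with background correction from 936 negative control probes (normexp, offset 16), quantile normalisation and log2. The test took the 20573 probes that 3 or more arrays detected, that is, with a detection p under 0.05. One linear model with 3 groups was fitted (6 residual and 5.19 prior degrees of freedom), and p-values were adjusted by Benjamini-Hochberg over all tested probes. Errors are SD or SE over 3 arrays per group, a number that limits the precision. For the WT1-negative arrays no source used here ties the numbers to separate animals, so their spread may be technical in part. The members, the lists and the alternatives were chosen with earlier results of these data known. All member probes are named. Other pathway genes are named by their brightest tested probe where it had the largest called rise or fall of its list or was called between the WT1-positive groups. Exceptions are stated.

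Pairing by animal was checked by correlating, over probes, deviations from the group mean. Replicates 1, 8 and 29 with 30 gave 0.352, 0.338 and 0.468, and the other 6 combinations -0.386 to 0.0344. The study states 3 animals for these arrays and no block in its model, so blocks were alternatives. On simulated data with 200 probes changed by 2 on the log2 scale, 90.5%, 90.5% and 89.0% were recovered for WT1-high against WT1-intermediate, WT1-high against WT1-negative and WT1-intermediate against WT1-negative cells. The changed probes were drawn from the brighter tested probes, no other probe differed between groups, and 27152, 27011 and 27166 probes passed the filter. These rates therefore do not cover probes near background or smaller differences, such as those of Id2 and Bmp6 between the WT1-positive groups. Promoter windows are from RefSeq (GRCm38.p6). Gene symbols and chromosomes were read from the deposited annotation columns.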

Additional observations from a re-analysis of the deposited data

How the results depend on the processing

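Alternatives changed the scaling, background correction, offset, detection filter, arrays in the fit and replicate block, or left out each array. For WT1-high against WT1-intermediate cells, 730 probes were called. The count was 2684 under median scaling, 335 with no filter, 339 with the compared groups alone and 324 to 866 with arrays left out (333 or 371 without replicate 8 or 29 of WT1-high, and 324 without replicate 1 of WT1-intermediate). The random replicate block gave 1752, the fixed replicate block by label numbers 1847 with 2 member probes, and that by animal 1520 with 1 member probe, and blocks changed the call of no member but Id2. Requiring detection on all 9 arrays left 5 member probes, of which 4 were called against WT1-negative cells in each comparison. Over the whole array, 7970 and 7716 probes were called under that filter. The number of probes that it left was not counted, so no share over all probes stands beside the members. Median scaling centres on all probes, most of them near background. It moved the median difference between WT1-high and WT1-intermediate cells from 0.05 to 0.45 and that between WT1-intermediate and WT1-negative cells from -0.13 to -0.44, and the share of calls that were lower from 74.5% to 4.51% and from 57.9% to 76.9%.

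Under median scaling, 6 member probes were called for WT1-intermediate against WT1-negative cells. The member calls lost were the dimmer Bmp4 probe (0.60, adjusted p 0.072), Bmp7 (0.49, 0.087), the brighter Id2 probe (0.87, 0.097) and Id3 (0.61, 0.19; limma, Benjamini-Hochberg). Smad1 turned to -0.12 there. Median scaling also ended the WT1-high calls of Smad1 (0.49, adjusted p 0.16), Smad5 (0.65, 0.12) and Fst (-0.71, 0.079), and cyclic loess that of Smurf1 for WT1-intermediate cells (-0.26, 0.17; limma, Benjamini-Hochberg). The call of the brighter Id2 probe for WT1-high cells was lost under median scaling (0.81, adjusted p 0.13), and it and the Bmp7 call for WT1-intermediate cells were lost without background correction (0.054 and 0.083) and with no filter (0.11 and 0.088; adjusted p, limma, Benjamini-Hochberg). Uncalled differences between WT1-high and WT1-intermediate cells changed sign under median scaling for Bmper (0.54), Id1 (0.39), Id3 (0.47) and Id4 (0.43), and under cyclic loess for Id4 (0.078). With arrays left out they crossed 0 for Id4 (-0.088 to 0.14), Id1 (-0.68 to 0.056), Bmp4 (-0.10 to 0.43) and Bmper (-0.41 to 0.17). Grem1, at background on all 6 arrays, has no measured difference there (fitted values -0.11 to 0.0091). Without background correction, fitted differences from WT1-negative cells shrank for dim probes, as for Bmp6 (0.59 and 0.39), Id4 (0.51 and 0.52) and Grem1 (-0.92 and -0.90), and kept their calls. The cause of the other changes was not tested. Signal over background limits Bmp2, Bmp6, Bmp7, Grem1, Id4 and the dimmer Bmp4 and Id2 probes, which went undetected on arrays of 1 or more groups.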
